A study of Mus musculus with 27 samples.

Results

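Livers of BALB/c mice (genotype Balb/C in the labels) taken 4 weeks after weaning, which the labels call regressed (REG), were compared with livers taken 4 days after weaning, called involution day 4 (ID4). The libraries were chosen by their titles, 4 REG and 4 ID4 libraries, 8 of the 27 in the study. Each library came from the whole liver of a wild-type mother, without transgene or drug. Both groups had been bred at 10 to 12 weeks of age, nursed litters of normalised size and were weaned between days 10 and 14 of lactation, so they differ in the time since weaning. The submitters describe the animals as matched for age, and ages at collection are not given in the sources used here. Frozen livers had been pulverised, RNA was taken with Trizol, and sequencing libraries came from the NEBNext Ultra RNA kit. Day 6 (ID6, 6 animals), day 8 (ID8, 3), day 2 (ID2, 3) and lactation day 10 (LAC, 3) give side values. All 27 libraries also share the fit that sets the filter, the scaling and the spread. The nulliparous animals enter no comparison here, so the reference for day 4 is the later liver of animals with the same history.

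The liver of a nursing rodent raises its synthesis of lipid to supply the mother and the milk. When suckling stops, this demand ends and the mammary gland regresses. Cholesterol synthesis is a chain of enzymes from acetyl-CoA through mevalonate and squalene to cholesterol, whose genes are switched together by the transcription factor SREBP2. Fatty acid synthesis is driven by SREBP1c and ChREBP in response to insulin and carbohydrate. The acute phase response is the secretion of plasma proteins by hepatocytes under interleukin 6 and interleukin 1, and Kupffer cells are the resident macrophages of the liver.

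Expected counts, the estimated reads per gene, summed to 60984140 to 71340058 per ID4 library and 59402998 to 71253166 per REG library. Levels are given as CPM, counts set to a common total and scaled between libraries, always in the order of the animals titled ID4_13, ID4_15, ID4_211, ID4_215, REG_203, REG_214, REG_234 and REG_239. Albumin took 6.82% to 8.00% of the counts in ID4 and 7.29% to 9.60% in REG, and all 14 hepatocyte markers were detected in all 8 libraries (summed 158000 to 170000 CPM in ID4 and 136000 to 167000 CPM in REG). ID4_15 stood apart. Its 17 genes of the exocrine pancreas summed to 173 CPM against 10.9 to 22.4 in the other ID4 livers and 14.5 to 30.1 in REG, and in each of these other 7 livers 9 to 14 of the 17 were at 0. On the first principal component of the 500 most variable genes (26.27% of the variance) this animal lay at -36.51 and the others between -10.37 and 20.29, and 15 of the 16 pancreas genes used were among the 50 with the largest weight. The titles ID4_13 and ID4_15 carry numbers under 200, while ID4_211, ID4_215 and all REG titles carry numbers of 200 and over. The labels do not say what the numbers mark, so results were also computed within the 200 range, 2 ID4 against 4 REG livers, and calls lost there are given beside the gene or by its list's count. All 4 ID4 libraries had been sequenced in 2 runs, as was REG_203, and the other 3 REG libraries in 1.

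The comparison asks what changes between the liver of day 4 and the liver 4 weeks after weaning. The listed genes of cholesterol synthesis and most of those of fatty acid synthesis were higher at 4 weeks, and most genes of the acute phase response were lower. Some genes of macrophages and of cell division were also lower. Within the 200 range the fatty acid synthesis calls fell to 5 of 22 and the acute phase calls to 12 of 31. The macrophage calls fell to 0 there and the cell division calls to 1. Of 16428 genes tested, 711 differed (4.33%; edgeR quasi-likelihood test, Benjamini-Hochberg adjusted p under 0.05), 343 higher (2.09%) and 368 lower (2.24%) in REG. Of these, 173 had an absolute log2 fold change over 1, and 665 were protein-coding. The median log2 fold change over all genes was 0.014. In 620 of the 711 (87.2%) the CPM of the groups did not overlap, against 9.89% of all genes tested. Calls and overlap come from the same libraries, so this share is no separate support. The largest rises and falls named below were also chosen for lack of overlap. DESeq2 called 1065 genes. Within the 200 range 159 genes were called, and the counts without 1 animal ran from 416 (without ID4_13) to 624, with 475 without ID4_15. The split into 48.2% higher calls depends on the scale. It was 80.0% without scaling for library composition, which moved the median of all genes to 0.121, 73.9% on log2(TPM + 1) and 75.5% on log2(TPM + 0.1).

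The tested genes of cholesterol synthesis moved in 1 direction. All 25 genes of the list of sterol synthesis enzymes and SREBP2 targets rose in REG (edgeR adjusted p under 0.05), with a median log2 fold change of 1.5 against 0.014 over all genes, and in 24 of them the groups did not overlap. The count was 24 without ID4_15, 24 without REG_203 and 22 within the 200 range, where the median was 1.43. The 3 genes not called there were Insig1, Ebp and Sc5d (edgeR adjusted p = 0.0534, 0.139 and 0.072). The list and all others below were written with earlier results of these data known.

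At the head of the pathway Srebf2, which encodes SREBP2, stood at 43.7, 38.4, 36.5 and 40.1 CPM in ID4 and at 74.3, 68.4, 61.5 and 60.7 CPM in REG. The lowest REG liver lay above the highest ID4 liver, and the log2 fold change was 0.74 (SE 0.11, edgeR adjusted p = 0.000157). Insig1, which holds SREBP in the endoplasmic reticulum and is itself a target, ranged from 51.3 to 111 CPM in ID4 and from 270 to 795 CPM in REG (log2 fold change 2.73, SE 0.44).

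The mevalonate arm rose by unequal amounts. Hmgcs1, which joins acetyl-CoA units at the start of the arm, went from 109 ± 16.9 to 256 ± 41.8 CPM (mean ± SD, n = 4 each), without overlap (log2 fold change 1.23, SE 0.20, edgeR adjusted p = 0.000736). Mvk, Pmvk and Mvd, which turn mevalonate into isopentenyl diphosphate, had log2 fold changes of 0.95, 1.88 and 2.63. Idi1, the isomerase that makes dimethylallyl diphosphate (ENSMUSG00000058258, chromosome 13, 8885501 to 8892451, GRCm38), stood at 20.6, 11.6, 10.8 and 15.4 CPM in ID4 and at 103, 86.2, 89.5 and 116 CPM in REG. The 4 REG livers lay close together and far above all ID4 livers (log2 fold change 2.76, SE 0.24, edgeR adjusted p = 5.08e-07). Fdps, farnesyl diphosphate synthase (ENSMUSG00000059743, chromosome 3, 89093588 to 89101959), stood at 24.5, 21.6, 24.1 and 24.1 CPM in ID4 and at 270, 163, 155 and 328 CPM in REG. The ID4 livers were nearly alike while the REG livers differed among themselves, and the mean was 9.71-fold higher in REG (log2 fold change 3.28, SE 0.30, edgeR adjusted p = 8.75e-07).

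From squalene on, the first enzyme rose most. Sqle, squalene epoxidase (ENSMUSG00000022351, chromosome 15, 59315077 to 59331192), stood at 5.94, 3.68, 3.29 and 3.66 CPM in ID4 and at 51.9, 36.6, 25.6 and 38.4 CPM in REG. No liver overlapped, and the log2 fold change was 3.20 (SE 0.37, edgeR adjusted p = 2.82e-05). Fdft1, which makes the squalene, changed less, from 66.8 ± 1.90 to 113 ± 21.2 CPM (log2 fold change 0.76). Cyp51, the lanosterol demethylase, went from 17.9 ± 2.55 to 80.0 ± 14.6 CPM and Msmo1, the methylsterol oxidase, from 11.3 ± 1.17 to 57.5 ± 4.85 CPM, log2 fold changes of 2.16 and 2.35 (edgeR adjusted p = 1.24e-08 and 3.11e-08). Ebp, a late sterol isomerase, went from 182 ± 19.2 to 257 ± 23.3 CPM (log2 fold change 0.50, SE 0.10, edgeR adjusted p = 0.0029). Sc5d, a late desaturase, went from 169 ± 7.74 to 336 ± 50.9 CPM (log2 fold change 0.99).

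Stard4, a cytosolic sterol carrier, had the smallest p of the list, with 33.0 to 41 CPM in ID4 and 89.3 to 117 CPM in REG (log2 fold change 1.5, SE 0.12, edgeR adjusted p = 8.19e-09).

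**Figure D1:**
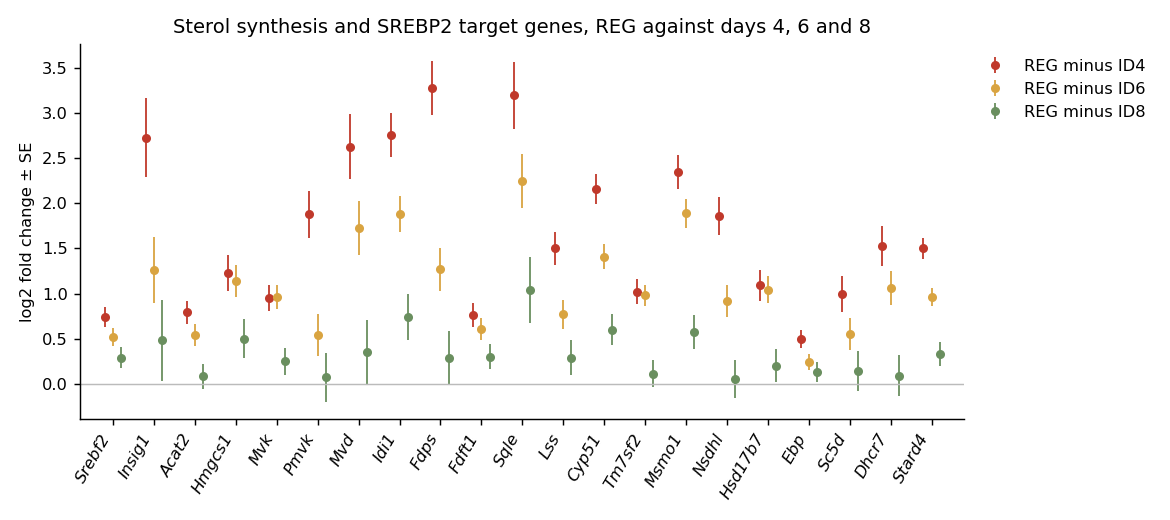
Log2 fold changes of 21 of the 25 sterol genes in REG against day 4 (red), day 6 (yellow) and day 8 (green), in pathway order; points are fitted values and bars are 1 SE. All red points lie above 0, the median over the 25 genes was 1.5 against day 4, 0.96 against day 6 and 0.29 against day 8, and the 3 comparisons share the REG livers.

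Promoters are shown for a gene of each lipid pathway, because members of these lists moved together. The sequences are the 250 bases before the RefSeq start (GRCm38.p6), written 5′ to 3′ on the gene's strand, with each CCAAT box, read on either strand as CCAAT or ATTGG, in capitals. Hmgcs1 lies at chr13:119690101-119690350 on the plus strand and Fasn, the fatty acid synthase, at chr11:120824548-120824797 on the minus strand.
Hmgcs1: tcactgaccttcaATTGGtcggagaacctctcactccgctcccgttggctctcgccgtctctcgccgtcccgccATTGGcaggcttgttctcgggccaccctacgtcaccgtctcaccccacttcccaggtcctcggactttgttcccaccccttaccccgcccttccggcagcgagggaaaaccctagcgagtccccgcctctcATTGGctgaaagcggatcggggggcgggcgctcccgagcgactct
Fasn: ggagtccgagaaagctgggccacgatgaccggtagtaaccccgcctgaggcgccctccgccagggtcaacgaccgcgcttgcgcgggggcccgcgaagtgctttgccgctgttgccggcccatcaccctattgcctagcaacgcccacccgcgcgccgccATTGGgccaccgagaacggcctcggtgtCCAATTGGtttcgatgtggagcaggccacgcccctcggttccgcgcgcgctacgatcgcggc
Each of these windows holds 3 matches, at 237, 176 and 45 bases before the start in Hmgcs1 and at 90, 62 and 59 bases in Fasn. The Fasn matches at 62 and 59 overlap in a single stretch, CCAATTGG, read on both strands. A CCAAT match was present in 16 of the 17 sterol genes with a promoter entry (94.1%), in 13 of 18 fatty acid synthesis genes (72.2%), in 24 of 31 cell cycle genes (77.4%) and in 4 of 24 acute phase genes (16.7%), against 37.5% of all 27025 promoters. The E-box CACGTG was in 4 of the 17 sterol promoters (6.86% of all) and the sterol element TCACNCCAC in 1, that of Hmgcs1 (1.22% of all). These matches are descriptions of the letters, and the motifs shown were picked after a first look at the 13 searched.

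Most fatty acid synthesis genes were also higher at 4 weeks, with wider scatter among the REG livers. Of 22 listed genes 15 rose, and the other 7 did not pass the test; the median log2 fold change was 1.12. Scd1, the desaturase that makes oleic acid (ENSMUSG00000037071, chromosome 19, 44394455 to 44407879), stood at 184, 219, 272 and 172 CPM in ID4 and at 4890, 3060, 4790 and 9060 CPM in REG. The mean was 25.7-fold higher in REG, the groups lay far apart, and the log2 fold change was 4.69 (SE 0.44, edgeR adjusted p = 1.69e-06). Fasn stood at 93.8, 96.7, 107 and 85.9 CPM in ID4 and at 775, 361, 258 and 614 CPM in REG (log2 fold change 2.39, SE 0.51, edgeR adjusted p = 0.0084). Its REG livers differed by more among themselves than the ID4 livers did, without reaching them. Acss2, which activates acetate, went from 60.6 ± 9.81 to 241 ± 121 CPM, and Thrsp, a promoter of lipogenesis also called Spot 14, from 28 ± 5.83 to 235 ± 187 CPM (log2 fold changes 1.99 and 3.07). Aacs, which makes acetoacetyl-CoA for both lipid pathways, rose from 12.8 ± 2.26 to 117 ± 73.5 CPM (log2 fold change 3.19), a call lost within the 200 range (edgeR adjusted p = 0.0554).

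The polyunsaturated branch moved by less but with little scatter. Fads1 and Fads2, the desaturases of polyunsaturated fatty acids, had log2 fold changes of 0.83 and 0.88, and Elovl5, their elongase, of 0.77. Slc25a1, which exports citrate from mitochondria, went from 117 ± 8.51 to 178 ± 29.5 CPM, without overlap (log2 fold change 0.60, SE 0.09, edgeR adjusted p = 0.000183). Pnpla3, a lipid droplet protein that follows SREBP1c, stood at 0.684, 0.958, 1.17 and 0.994 CPM in ID4 and at 24.8, 3.97, 5.69 and 27.1 CPM in REG. Those REG livers fell into a high and a low pair, and the call (log2 fold change 4.02, SE 0.93, edgeR adjusted p = 0.015) was lost without ID4_13 (0.0563) and within the 200 range (0.193). Srebf1, which encodes SREBP1c, had a log2 fold change of 0.52 and Mlxipl, which encodes ChREBP, of -0.07 (edgeR adjusted p = 0.551 and 0.912).

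The number of fatty acid synthesis calls depended on which animals entered. It was 11 without ID4_13 or REG_239, 13 without ID4_15, and 5 within the 200 range (Scd1, Slc25a1, Fads1, Fads2 and Elovl5), where the median was 1.21. Summed CPM of a fat tissue list of 9 genes was 342 to 622 in ID4 and 679 to 978 in REG, while the median log2 fold change of its genes was -0.003, with 5 of 9 values below 0. Their mean log2 CPM by animal, relative to the ID4 mean, overlapped, at -0.89 to 0.80 in ID4 and -1.01 to 1.11 in REG. Car3, a carbonic anhydrase also made in liver, was its 1 called gene (log2 fold change 0.90, edgeR adjusted p = 0.015; 0 called within the 200 range), while Adipoq, the fat cell hormone, averaged 0.37 TPM in ID4 and 0.51 TPM in REG. The part of fat tissue in the lipid results was not tested.

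**Figure D2:**
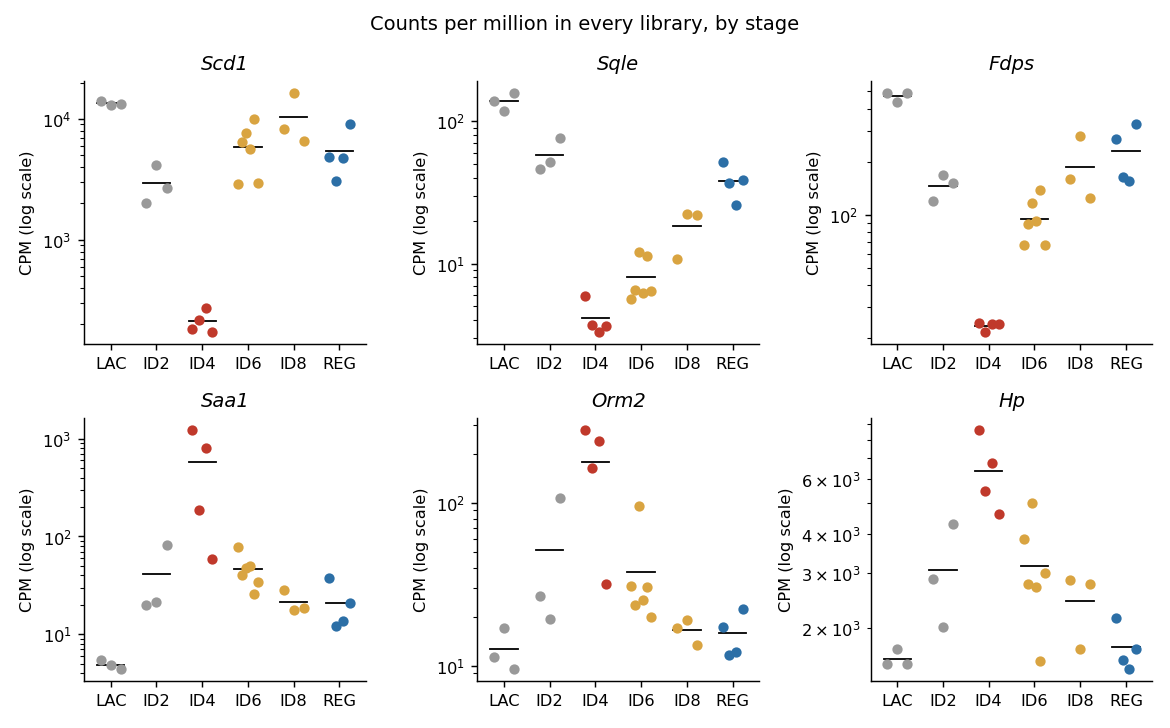
CPM on a log scale in every library at 6 stages for 3 lipid genes (upper row) and 3 acute phase genes (lower row); points are animals and lines are means. ID4 (red) has the lowest mean of the stages for Scd1, Sqle and Fdps, and for Saa1, Orm2 and Hp the ID4 livers lie above all 4 REG livers (blue).

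Fat burning and handling changed in few genes. Of 28 genes of fatty acid oxidation and ketogenesis, Pdk4, which blocks pyruvate oxidation, and Ehhadh, a peroxisomal oxidation enzyme, rose, with a list median of 0.03. Ehhadh went from 278 ± 23.6 to 430 ± 91.1 CPM (log2 fold change 0.63). Pdk4 stood at 6.04 to 8.16 CPM in ID4 and at 12.0, 13.9, 35.1 and 13.9 CPM in REG, where REG_234 was far above the rest (log2 fold change 1.33, edgeR adjusted p = 0.00807). Within the 200 range 0 of the 28 were called by edgeR, with 2 at an unadjusted p under 0.05, and Ehhadh and Pdk4 had adjusted p = 0.108 and 0.145. Among 18 lipid droplet and lipase genes the fatty acid binding proteins Fabp1 and Fabp5 rose (log2 fold changes 0.91 and 1.78). Within the 200 range Fabp1 was called and Fabp5 was not (1.89, edgeR adjusted p = 0.0945).

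Most genes of the hepatocyte acute phase response fell. Of 31 listed genes 22 were lower in REG, with a median log2 fold change of -0.70, and 24 of the 31 did not overlap. Calls numbered 17 to 21 in the 8 fits without 1 animal and 12 within the 200 range, where the median was -0.62. Among the 9 that did not pass were the fibrinogen genes Fga, Fgb and Fgg (log2 fold changes -0.26, -0.40 and -0.39).

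The serum amyloid genes Saa1 and Saa2 had the largest fold changes of the list. Saa1 (ENSMUSG00000074115, chromosome 7, 46740497 to 46742980) stood at 1240, 187, 807 and 58.6 CPM in ID4 and at 37.6, 12.2, 13.7 and 20.6 CPM in REG. The ID4 livers spanned a wide range, its lowest animal lay near the highest REG animal, and the log2 fold change was -4.77 (SE 0.89, edgeR adjusted p = 0.0032). Saa2 followed the same order of animals in ID4 (822, 82.9, 373 and 37.1 CPM) and stood at 35.4, 11.3, 9.13 and 18.5 CPM in REG (log2 fold change -4.14, edgeR adjusted p = 0.00922). Saa1 and Saa2 are near-identical genes, so the division of reads between them is uncertain. Saa4, the amyloid protein made without inflammation, fell by 1.02 on the log2 scale (SE 0.15), from 298 ± 35.8 to 147 ± 16.3 CPM.

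Orm2, an orosomucoid that carries drugs and lipids in plasma (ENSMUSG00000061540, chromosome 4, 63362449 to 63365878), stood at 282, 165, 240 and 31.6 CPM in ID4 and at 17.3, 11.7, 12.2 and 22.4 CPM in REG. ID4_215 was again the lowest of day 4 but above all REG livers (log2 fold change -3.50, SE 0.66, edgeR adjusted p = 0.00338). Lcn2, lipocalin 2, which binds bacterial iron carriers, went from 85.8 ± 57.0 to 6.16 ± 2.78 CPM (log2 fold change -3.80). Hp, haptoglobin, which binds free haemoglobin (ENSMUSG00000031722, chromosome 8, 109575128 to 109579172), stood at 8600, 5460, 6750 and 4630 CPM in ID4 and at 2160, 1580, 1480 and 1720 CPM in REG. Its REG livers lay close together below all ID4 livers (log2 fold change -1.87, SE 0.30, edgeR adjusted p = 0.000736). Hpx, hemopexin, which binds heme, fell by 1.42 and Itih3, which stabilises hyaluronan, by 1.06. C3 (complement), Cp (ceruloplasmin) and Serpina3n had log2 fold changes of -0.73, -0.52 and -0.51. Fgl1, a fibrinogen-like secreted protein, stood at 1010 to 1220 CPM in ID4 and at 338 to 358 CPM in REG (log2 fold change -1.69, edgeR adjusted p = 0.00573). Within the 200 range the calls of Saa2, Lcn2, Cp and Fgl1 were lost (edgeR adjusted p = 0.0661, 0.0854, 0.0908 and 0.0557), and those of Saa1, Saa2 and Orm2 were lost when only the REG and ID4 libraries were fitted.

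Signalling genes upstream of the response had smaller values. Stat3, the factor activated by interleukin 6, had a log2 fold change of -0.45, and when animals were left out singly the call held only without ID4_215 (largest edgeR adjusted p = 0.089). Il1r1, the interleukin 1 receptor, had a value of -0.54 and kept its call only without REG_234. Neither was called within the 200 range (edgeR adjusted p = 0.192 and 0.338). Socs3, Cebpb and Cebpd had log2 fold changes of -0.22, 0.11 and -0.01 and were not called.

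Promoters of the amyloid and orosomucoid genes are printed with matches to TTGCNNAA, a core of the C/EBP recognition sequence, in capitals. Saa1 lies at chr7:46742981-46743230 on the minus strand and Orm2 at chr4:63362199-63362448 on the plus strand (RefSeq, GRCm38.p6).
Saa1: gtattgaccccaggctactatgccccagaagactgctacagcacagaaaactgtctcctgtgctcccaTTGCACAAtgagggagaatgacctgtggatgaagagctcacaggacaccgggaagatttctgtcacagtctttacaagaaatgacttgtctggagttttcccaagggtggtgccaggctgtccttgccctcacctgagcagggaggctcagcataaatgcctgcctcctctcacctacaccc
Orm2: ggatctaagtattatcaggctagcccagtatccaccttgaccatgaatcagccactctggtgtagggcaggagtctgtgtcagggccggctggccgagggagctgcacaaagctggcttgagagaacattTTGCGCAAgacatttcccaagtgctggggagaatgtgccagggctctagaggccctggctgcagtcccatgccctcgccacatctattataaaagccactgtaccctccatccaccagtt
The match lies 182 bases before the start in Saa1 and 120 bases in Orm2. The motif was in 14 of 24 acute phase promoters (58.3%), in 2 of 17 sterol promoters (11.8%) and in 10.8% of all promoters. The other motifs searched on both strands were TTNNGNAA, TTCNNNGAA, TTCCNGGAA, GGGNNTTCC, TTGCGCAA and TTTGAA, a longer form of the sterol element that contains TCACNCCAC, a longer NF-kappa B site and a direct repeat of TGACCT. TTGCGCAA is a case of TTGCNNAA and TTCCNGGAA of TTCNNNGAA.

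Some macrophage genes were lower at 4 weeks. Of 28 genes of Kupffer cells and macrophages 11 fell, with a median log2 fold change of -0.48 and 27 of 28 values below 0. Adgre1, which encodes F4/80, stood at 33.0, 30.4, 24.7 and 24.1 CPM in ID4 and at 18.7, 17.1, 16.6 and 18.4 CPM in REG, without overlap (log2 fold change -0.66, SE 0.13, edgeR adjusted p = 0.0029). Marco, a scavenger receptor, went from 7.75 ± 1.42 to 3.13 ± 0.624 CPM (-1.31), and Clec4f, a Kupffer cell lectin, from 270 ± 4.92 to 188 ± 22.5 CPM (-0.52). The monocyte and dendritic gene Ccr2 (-0.54) and the lipid-associated macrophage gene Trem2 (-0.24) did not pass. The count was 5 without ID4_15. Within the 200 range it was 0 by edgeR, with 13 of 28 at an unadjusted p under 0.05 and a median of -0.38. In bulk liver fewer cells of a type and less RNA per cell cannot be told apart.

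Other immune genes gave few calls. The T and NK list (24 genes) and the B and plasma cell list (15) had 0 calls by edgeR, 1 and 2 genes at an unadjusted p under 0.05, and 0 by DESeq2 and by limma-voom. Their medians were 0.32 and 0.22, with 20 of 24 and 11 of 15 values above 0. Their summed levels overlapped, at 10.4 to 13.8 CPM in ID4 and 11.6 to 16.3 CPM in REG for the first and 24.2 to 45.0 and 31.9 to 58.8 CPM for the second. The neutrophil list (16 genes) also had 0 calls by edgeR (4 at an unadjusted p under 0.05, 1 by DESeq2, 0 by limma-voom), with a median of -0.79. Its summed level was 30.2 to 38.2 CPM in ID4 and 19.9 to 22.4 CPM in REG, without overlap. The groups overlapped in each of the 16 genes taken singly. Of 14 genes of MHC class II presentation, H2-Eb1 (log2 fold change 1.10) and the invariant chain Cd74 (0.88) rose. The H2-Eb1 call was lost without ID4_13 (edgeR adjusted p = 0.0501), and that of Cd74 without ID4_13, ID4_211, REG_203 or REG_239, so the list had 0 calls by edgeR without ID4_13. It also had 0 by edgeR within the 200 range, with 6 of 14 at an unadjusted p under 0.05. More genes were called higher in other fits, 4 without REG_234, 3 without ID4_15, 4 by DESeq2 (and 1 lower), 4 without composition scaling and 4 on log2(TPM + 1). Interferon-stimulated genes had a median of -0.46, with 28 of 29 values below 0, 16 at an unadjusted p under 0.05, 7 lower by DESeq2 and 2 by limma-voom. By edgeR there was 1 call of 29, Ifit3b (-0.80, edgeR adjusted p = 0.0496), a call that held in 0 of the 8 fits that leave an animal out and was lost within the 200 range (0.326).

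Some cell division genes fell from an already low level. Of 38 listed genes 9 were lower in REG, with a median log2 fold change of -0.80. Top2a, the topoisomerase of dividing cells (ENSMUSG00000020914, chromosome 11, 98992943 to 99024189), stood at 3.31, 4.44, 2.38 and 2.56 CPM in ID4 and at 0.812, 1.31, 0.998 and 1.18 CPM in REG. Its groups did not overlap (log2 fold change -1.56, SE 0.30, edgeR adjusted p = 0.0027). Cdk1, the mitotic kinase, went from 1.29 ± 0.391 to 0.362 ± 0.169 CPM (log2 fold change -1.82, edgeR adjusted p = 0.000559). The count is fragile. It was 4 without ID4_15 or REG_203, 5 without REG_234, 5 by limma-voom, 12 by DESeq2, 1 within the 200 range (Cdk1) and 1 on log2(TPM + 1). Myc, the growth regulator kept in the ribosome biogenesis list, went the other way. It stood at 1.64, 1.83, 1.55 and 1.44 CPM in ID4 and at 1.89, 10.2, 26.0 and 9.56 CPM in REG. REG_203 was near the ID4 livers and the other 3 above, and the call (log2 fold change 2.88, SE 0.66, edgeR adjusted p = 0.014) was lost without REG_234 (0.056) and within the 200 range (0.151). It was the 1 call among 25 ribosome biogenesis genes, of which 23 had values above 0 and 13 an unadjusted p under 0.05, with a median of 0.29. That count was 4 by DESeq2, 8 without composition scaling, 3 without REG_239, 3 on log2(TPM + 1), and 2 with the REG and ID4 libraries alone. It was 0 by limma-voom (11 at an unadjusted p under 0.05), and by edgeR 0 within the 200 range (6) and 0 with title number range as a covariate (8).

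**Figure D3:**
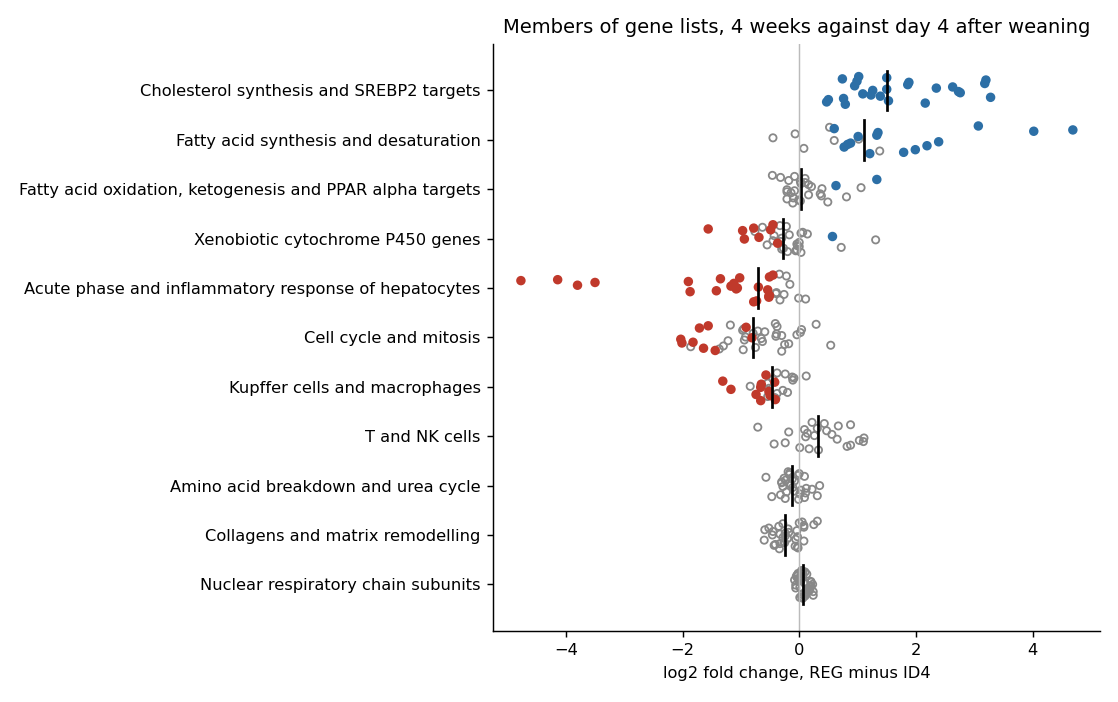
Log2 fold change in REG against ID4 of each tested member of 11 gene lists; filled points passed the test (blue higher, red lower in REG), open points did not, and black lines are list medians. Sterol genes (25 of 25 filled) and fatty acid synthesis genes (15 of 22) lie to the right, acute phase genes (22 of 31) to the left, and the respiratory chain stays close to 0 with a median of 0.06.

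Drug-metabolising enzymes of the cytochrome P450 families shifted down in part. Of 34 genes 8 fell and 1 rose (Cyp2d9, 0.57), with a median of -0.29. Cyp3a41a, a female-predominant P450, stood at 1110, 1200, 1300 and 1290 CPM in ID4 and at 363, 306, 372 and 613 CPM in REG (log2 fold change -1.56, SE 0.25, edgeR adjusted p = 0.000565). All REG livers were far below the ID4 livers. Cyp3a16, Cyp3a44 and Cyp2d26 fell by 0.97, 0.78 and 0.69 on the log2 scale. These genes have near-identical neighbours, so counts divided among them are uncertain. The Cyp2d9 call held in 2 of the 8 fits that leave an animal out and was lost within the 200 range (edgeR adjusted p = 0.303). On log2(TPM + 1) 5 genes fell, without REG_239 5 did, and within the 200 range 4 did. Of 18 genes of the zone around the central vein, Slc13a3, a dicarboxylate transporter, Slc1a2, a glutamate transporter, and Rhbg, an ammonium transporter, fell. Slc13a3 stood at 32.7, 37.5, 34.4 and 28.9 CPM in ID4 and at 12.8, 15.9, 9.47 and 9.84 CPM in REG, without overlap (log2 fold change -1.47, SE 0.25, edgeR adjusted p = 0.000899), and all 3 were called in the 200 range too.

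Several single regulators and secreted proteins were called. Onecut1, also called HNF6, a hepatocyte transcription factor that growth hormone stimulates (ENSMUSG00000043013, chromosome 9, 74861921 to 74891781), stood at 18.9, 14.1, 15.3 and 14.1 CPM in ID4 and at 53.2, 57.0, 61.6 and 86.4 CPM in REG. The groups were far apart (log2 fold change 2.05, SE 0.46, edgeR adjusted p = 0.012), and the call was lost within the 200 range (2.13, 0.13) and with title number range as a covariate. Hamp, which encodes hepcidin, the hormone that limits iron export, stood at 517, 388, 678 and 592 CPM in ID4 and at 1260, 1470, 1110 and 1410 CPM in REG. It rose without overlap (log2 fold change 1.27, SE 0.19, edgeR adjusted p = 0.000248), while Trf, transferrin, fell by 0.48, a call lost without ID4_13, REG_214 or REG_234 and within the 200 range (edgeR adjusted p = 0.182). Gdf15, a stress hormone that reduces appetite, went from 9.71 ± 3.64 to 3.32 ± 1.08 CPM (log2 fold change -1.55, edgeR adjusted p = 0.0181), a call lost without ID4_15, REG_214 or REG_239 and within the 200 range (-1.19, 0.221). Fetub, a secreted protease inhibitor, fell by 0.66. Chrna4, a nicotinic acetylcholine receptor subunit, had 0 to 6 counts per ID4 library and 91 to 992 in REG. Its fitted log2 value of 6.66 (SE 1.14, edgeR adjusted p = 0.00151) depends on the small count added to such libraries and is no bound. The call was lost within the 200 range (edgeR adjusted p = 0.0638), by limma-voom and on log2(TPM + 1). Hexa, a lysosomal hydrolase, fell by 0.65 on the log2 scale (edgeR adjusted p = 9.15e-06), 1 of the 6 that fell among 30 lysosome and autophagy genes. That count was 11 by DESeq2, 3 without ID4_13 or REG_239 and 2 within the 200 range.

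Several processes gave 0 calls in the main edgeR fit. Some other edgeR fits called a few members, such as 3 collagen and matrix genes lower without REG_234. Without composition scaling 2 glucose genes were called higher. Glucose production and storage (20 genes) had a median of -0.04, with 9 genes at an unadjusted p under 0.05, 1 call by DESeq2 and 0 by limma-voom. Amino acid breakdown and the urea cycle (31 genes) had a median of -0.12, with 8, 2 and 0. Nuclear respiratory chain subunits (39 genes) had a median of 0.06, with 4, 0 and 0 (5 higher on log2(TPM + 1)), and cytosolic heat shock proteins (19 genes) one of 0.06, with 1, 0 and 0. Collagens and matrix genes (33 genes) had a median of -0.24, with 7, 2 and 1, and sinusoidal endothelium (22 genes) one of -0.02, with 4, 1 and 0. Bile duct genes (14) had a median of -0.12, with 1, 0 and 0. Fbp1, a gluconeogenic phosphatase, Atp5b, an ATP synthase subunit, and Col18a1, a collagen, the genes of their lists with the highest mean TPM, had log2 fold changes of -0.03, 0.01 and -0.07, and those of Fbp1 and Col18a1 were above 0 without composition scaling (0.07 and 0.03). Bile acid genes had 1 call of 20, Cyp27a1, a side-chain hydroxylase of bile acid synthesis (0.42), whose call held only without ID4_215 when animals were left out singly and was lost within the 200 range (edgeR adjusted p = 0.524). Clock genes (18) had 0 calls by edgeR, 2 at an unadjusted p under 0.05 and 0 by DESeq2 and limma-voom.

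Livers of days 6 and 8 were set against the same REG livers. Against day 6, 277 genes differed (1.69%), 176 higher in REG (1.07%) and the rest lower (0.615%). Against day 8, 8 genes differed (0.0487%), 5 higher (0.0304%) and 3 lower (0.0183%). DESeq2 called 570 and 75. Both counts changed when single animals were left out. The day 6 count was 162, 168 and 184 without ID6_209, ID6_216 or ID6_232 and 154, 144 and 110 without REG_203, REG_234 or REG_239. The day 8 count was 2, 14 and 4 without ID8_101b, ID8_14 or ID8_98b and 4 and 5 without REG_214 or REG_239. All ID8 animals have title numbers under 200 and all REG animals 200 and over, so no day 8 value within 1 number range can be given. With title number range as a covariate in the fit of all libraries, where ID2 and ID4 hold both ranges, 7 genes differed from day 8. ID8 has 3 animals against 6 for ID6. The comparisons share the REG livers, so their values are given side by side only.

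Sterol genes were still mostly below REG on day 6. Of the 25 genes 21 were higher in REG, with a median of 0.96, and against day 8 0 were called by edgeR (9 at an unadjusted p under 0.05, 0 by DESeq2), with a median of 0.29 and all 25 values above 0. Sqle stood at 5.6 to 12.0 CPM on day 6 and averaged 18.4 CPM on day 8, with log2 fold changes of 2.25 (edgeR adjusted p = 0.000452) and 1.04 (0.414). Msmo1 had values of 1.89 and 0.57. Fatty acid synthesis gave fewer calls. Of its 22 genes Fads1 and Fads2 were higher in REG than on day 6 by edgeR (5 at an unadjusted p under 0.05, 4 higher by DESeq2), the median was 0.31, and Scd1 had a log2 fold change of -0.12 (edgeR adjusted p = 0.924). Against day 8 its median was -0.30, with 0 called by edgeR (1 at an unadjusted p under 0.05, 0 by DESeq2).

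Acute phase genes gave 1 call against day 6 by edgeR. Il1r1 was that gene of 31, with a median of -0.23, 7 genes at an unadjusted p under 0.05 and 4 lower by DESeq2, and against day 8 the median was -0.075 with 0 called by edgeR (3 at an unadjusted p under 0.05, 1 by DESeq2). Saa1 ranged from 25.9 to 78.9 CPM on day 6, overlapping the REG livers and also the lowest ID4 liver, ID4_215. Some macrophage genes were called. Adgre1, Cd5l, Csf1r, Folr2, Vsig4 and Lyz2 were lower in REG than on day 6, 6 of 28 by edgeR with a median of -0.35 (18 at an unadjusted p under 0.05, 12 lower by DESeq2, all 28 values below 0), and against day 8 0 were called by edgeR (3 at an unadjusted p under 0.05, 0 by DESeq2). In cell division Ccne1, Cdc20, Cdk1 and Nek2 were lower in REG than on day 6, 4 of 38 by edgeR (13 at an unadjusted p under 0.05, 6 lower by DESeq2). Onecut1 averaged 14.9 CPM on day 6 and 17.0 CPM on day 8, and REG was higher by 2.12 (edgeR adjusted p = 0.00794) and 1.92 (0.241). Amino acid breakdown genes, 0 called against day 4, had 8 of 31 higher in REG than on day 6, among them Bhmt (1.24), a betaine methyltransferase, and Gnmt (0.61), a glycine methyltransferase.

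Some red cell genes were higher in REG than on days 6 and 8. The summed level of the list (10 genes) was 424 to 1050 CPM in ID4, 68.6 to 284 in ID6, 36.2 to 48.6 in ID8 and 466 to 658 in REG. Against ID4 0 of the 10 were called by edgeR (3 at an unadjusted p under 0.05, 0 by DESeq2 and limma-voom), against ID6 7 were higher in REG (5 by DESeq2) and against ID8 4 (5 by DESeq2). Values were below 0 for 2 of the 10 against ID6 and for 1 against ID8. Those 4, Hba-a1, Hba-a2, Hbb-bs and Hbb-bt, are 4 of the 5 genes higher in REG than in ID8, the fifth being Creb3l2 (log2 fold change 0.96), and Spata2l, Gm15408 and Phldb1 were lower; these 8 are named because the count was small, after their values were seen. The part of blood left in the tissue in the day 6 and day 8 comparisons was not tested.

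**Figure D4:**
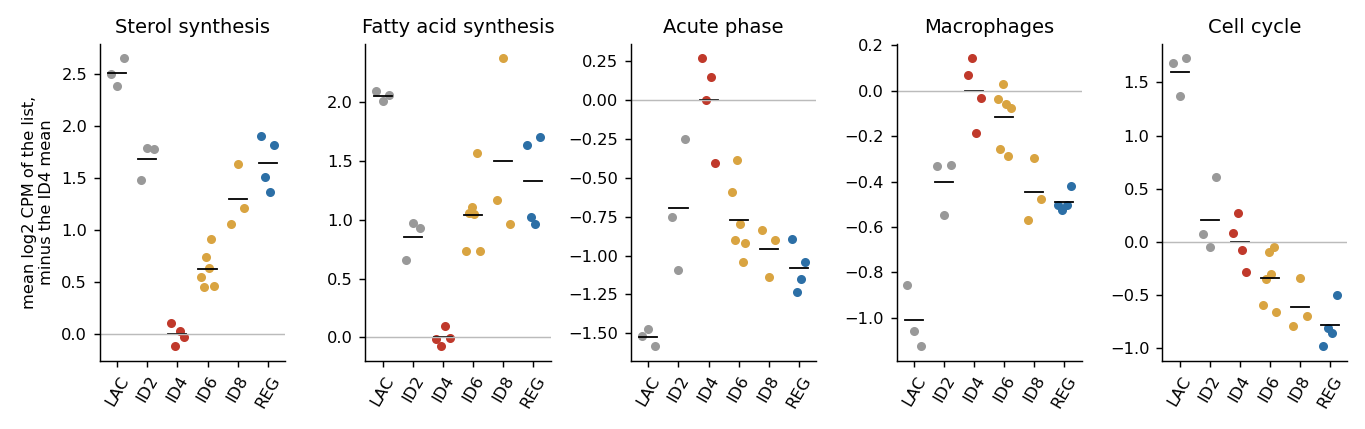
Mean log2 CPM of the members of 5 gene lists in each animal, minus the mean of the ID4 animals, by stage; points are animals and lines are stage means. Sterol genes run from 0.46 to 0.91 in ID6, 1.06 to 1.64 in ID8 and 1.37 to 1.90 in REG. Acute phase genes run from -0.40 to 0.26 in ID4, -1.04 to -0.39 in ID6 and -1.23 to -0.90 in REG.

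Set by animal, the mean log2 CPM of the sterol list, taken relative to the ID4 mean, ran from -0.12 to 0.11 in ID4 and from 1.37 to 1.90 in REG. It was 2.39 to 2.65 in lactation and 1.48 to 1.79 on day 2, so day 4 held the lowest animals of the 6 stages. The fatty acid synthesis list ran from -0.08 to 0.10 in ID4, 0.73 to 1.57 in ID6, 0.96 to 2.37 in ID8 and 0.97 to 1.70 in REG. The macrophage list ran from -0.18 to 0.14 in ID4, -0.29 to 0.03 in ID6, -0.57 to -0.30 in ID8 and -0.53 to -0.42 in REG. ID6 overlapped ID4 in the macrophage list and did not overlap it in either lipid list. The cell cycle list ran from -0.28 to 0.27 in ID4 and from -0.98 to -0.50 in REG, and all 3 lactation animals lay between 1.37 and 1.73.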

How the data were processed

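RNA of 27 whole livers was sequenced, 8 of which enter the main comparison. Per the submitters' processing notes, STAR 2.6.1a and RSEM 1.3.1 were used with mm10 (GRCm38), and the strand setting is not given in the sources used here. The authors deposited a table per library with expected counts (estimated reads per gene), TPM values and effective gene lengths. The deposited expected counts were rounded and fitted in 1 model of the 27 libraries in 7 groups with edgeR 4.0.16 (R 4.3.3; TMM scaling, filterByExpr, robust quasi-likelihood fit, two-sided test). NUL livers enter no comparison, only the filter, the scaling and the estimate of the spread. P-values were adjusted by Benjamini-Hochberg over the 16428 genes tested, and genes with an adjusted p under 0.05 were called. The SE is the log2 fold change divided by the root of its F value. The deposited TPM values were used for an alternative with limma 3.58.1 and for levels compared between genes, and the effective lengths as an offset in another. Symbols and positions came from GENCODE release 21 (GRCm38), which held 51633 of 51826 identifiers. The other 193 held 0.0147% of the counts. Promoters came from the RefSeq table (GRCm38.p6).

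Samples were grouped by title. Named genes were the 12 largest rises and 12 largest falls among called genes without overlap whose log2 CPM averaged 1 or more, excluding placeholder symbols, and per list the up to 4 called members with the smallest p or, with none called, the member with the highest mean TPM. Some genes within the list counts are not reported here by name. Other list members were named for their role after their values were seen. The groups compared and the lists were chosen with earlier results of these data known. Alternatives were DESeq2 1.42.0, limma-voom, other scalings, filters and thresholds, log2(TPM + 1) and log2(TPM + 0.1), covariates for title number range, runs and clock genes, and leaving out each animal. Within groups, libraries differed by more than sampling noise, so none was merged. Genes were counted at 59402998 to 71340058 counts per library in the main comparison.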

Additional observations from a re-analysis of the deposited data

Results flagged for a closer look

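A value far from the other 3 of its group was looked for in 164 sets of 4, of which chance alone would give about 1 in 20, or 8.2. There were 10. In ID4, Fdps stood at 21.6 CPM in ID4_15 against 24.1 to 24.5 in the others, Sqle at 5.94 CPM in ID4_13 against 3.29 to 3.68, and Fetub at 438 CPM in ID4_15 against 503 to 514. ID4_211 had 111 CPM of Insig1 against 51.3 to 59.6. The summed exocrine pancreas genes reached 173 CPM in ID4_15 against 10.9 to 22.4. In REG, Pdk4 stood at 35.1 CPM in REG_234 against 12.0 to 13.9, Cdk1 at 0.616 CPM in REG_239 against 0.269 to 0.286, and Cd163, a haemoglobin scavenger receptor, at 28.5 CPM in REG_214 against 20.9 to 21.3. Igkc, the antibody kappa chain, stood at 15 CPM in REG_203 against 7.62 to 8.13. The summed fat tissue genes were 679 CPM in REG_214 against 928 to 978.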

How the results depend on the processing

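The 711 genes called between REG and ID4 became 1223 without composition scaling (979 higher and 244 lower), 311 with title number range (under 200 or not) as a covariate, 159 within the 200 range, 277 at an adjusted p under 0.01 and 173 with an absolute log2 fold change over 1. Leaving out 1 animal gave 416 to 624, a covariate for the number of runs 529, and a fit of REG and ID4 alone 559. On log2(TPM + 1) 806 were called, 596 higher and 210 lower, and on log2(TPM + 0.1) 807, 609 higher. Against ID6 the 277 became 136 with these groups alone, 570 by DESeq2, 151 with a run covariate and 78 at an adjusted p under 0.01, and 110 to 314 without 1 animal. Against ID8 the 8 became 75 by DESeq2, 5 without the mitochondrial and 20 most abundant genes in the scaling, 5 without a filter, 4 at an adjusted p under 0.01, and 2 to 14 without 1 animal. Both without composition scaling and with effective lengths as an offset, 8 were called higher and 0 lower. The run covariate, the changed scalings, the length offset and the absent filter were chosen for days 6 and 8 after seeing the data. The cause of these changes was not tested. Of 138 called genes among the 151 named or listed, 89 were called in every fit without 1 animal and 49 were lost in 1 or more. Within the 200 range 79 lost their call, and with title number range as a covariate 48 did. Of 3174 values of the called genes under the alternatives, 462 lost their call and 0 changed direction, and 30 of 299 values of the other 13 genes changed sign. No paired analysis was possible because no title number is shared between groups. Total counts per library overlapped between the groups.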

Other observations

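Some plasma proteins of complement and coagulation, most of them made by hepatocytes, were lower in REG than in ID4, in a list written after the calls had been seen. Of 59 genes tested 29 fell and 0 rose, with a median log2 fold change of -0.36, and the count was 20 to 29 without 1 animal and 13 within the 200 range. C8a and C9, of the membrane attack complex, fell by 1.51 and 1.22 on the log2 scale, and F9, coagulation factor IX, by 0.58, and the C8a call was lost within the 200 range (edgeR adjusted p = 0.07). Against ID6 6 of the 59 were lower in REG.

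Genes of the pentose phosphate pathway and NADPH supply, from a list written at the same point, rose in 6 of 12 cases with a median of 0.43. Tkt, transketolase, had a log2 fold change of 0.76 and G6pdx, the entry enzyme, of 1.44. The G6pdx call was lost without ID4_13, ID4_15, ID4_211, ID4_215 or REG_239 (edgeR adjusted p = 0.064 to 0.112). The count was 3 without REG_239 and 4 to 6 without any other single animal, and within the 200 range it was 0 by edgeR, with 6 of 12 at an unadjusted p under 0.05. Cytosolic ribosomal proteins, from another such list, had 16 of 80 called higher, with 79 values above 0 and a median of 0.22. That count was 1, 4, 2 and 30 without ID4_13, ID4_15, ID4_211 or ID4_215, 8 without REG_203, REG_214 or REG_234, and 2 without REG_239. It was 43 on log2(TPM + 1), and within the 200 range 0 by edgeR, with 17 at an unadjusted p under 0.05.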
